A study of Homo sapiens with 18 samples.

Results

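The comparison described here set 2 ways of lowering HIF1A activity directly against each other in LNCaP cells whose FOXA1 was left intact: a lentiviral shRNA against HIF1A and the small molecule KC7F2. It rests on 6 of the 18 RNA sequencing libraries of the series, 3 of cells infected with the shRNA (shHIF1A) and 3 of cells infected with the control vector pGIPZ and then given KC7F2. Members were all genes with an RPKM (reads per kilobase of gene, scaled to library depth) of at least 1 in at least 3 of the 18 libraries, which kept 12900 of 26443 genes. LNCaP is an established human prostate cancer line that responds to androgen. Infection ran for 5 days in all groups, KC7F2 was given at 40 µM, and every culture, the controls included, received 100 µM CoCl2. CoCl2 and KC7F2 were both given 24 h before harvest, so the shRNA had acted for days when the inhibitor had acted for 24 h. The genotype label was wild type throughout. The sequence and number of the HIF1A hairpins, the backbone that carried them and the vehicle of KC7F2 were not stated in the sources used. Replicates were labelled 1 to 3 in each group, with no statement that they came from separate cultures, so p-values measure only the spread between these samples, which may be technical.

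HIF1A is the regulated subunit of a heterodimer with ARNT that binds short motifs near its target genes. In oxygenated cells prolyl hydroxylases mark HIF1A protein for VHL and the proteasome, and cobalt blocks that mark, so that HIF1A accumulates. Its known targets include genes of glucose uptake, glycolysis, lactate export, pH control and vessel growth. KC7F2 was described as a compound that lowers the making of HIF1A protein, whereas an shRNA removes the transcript, so the mRNA level reports on the shRNA but not on the compound.

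The depth, estimated from the steps between low RPKM values, ran from about 3257700 to 12086000 reads over the 18 libraries and from about 8892200 to 12086000 reads in the 6 compared. All 11 prostate cell line markers were tested, and their summed level was 1076 to 1250 RPKM in the shHIF1A libraries, 1599 to 1701 RPKM in the KC7F2 libraries and 1813 to 2238 RPKM in the control libraries. Of the markers of other cell types, 2 of 9 fibroblast, 1 of 7 endothelial and 1 of 8 leukocyte genes passed the filter, and PTPRC and CD3E were listed at 0 in the 9 libraries with FOXA1 intact. In bulk RNA, fewer cells of a type and less RNA per cell cannot be told apart. One property cut across the groups. Genes of the lowest quartile of exon length, among 5998 well-expressed genes, stood above those of the highest quartile in control replicate 1 (by 0.52 on the log2 scale) and in KC7F2 replicates 1 and 3 (0.45 and 0.38), against -0.165 to 0.0974 in the shHIF1A libraries and 0.04 in KC7F2 replicate 2. Some of the results that move when these 3 libraries are left out are marked below, and unmarked list counts can move too. That fit leaves 1 KC7F2 library, which is assumed to vary like the other groups.

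The sequences that matter here are those of the most changed transcript and of promoters of HIF pathway genes. The MIR30A gene gives the 2 mature microRNAs of the miR-30a hairpin, shown 5′ to 3′ from RefSeq (GRCh38.p14, minus strand) with the seed, bases 2 to 8, in capitals because the seed sets which transcripts a microRNA can pair with.
hsa-miR-30a-5p, chr6:71403595-71403616: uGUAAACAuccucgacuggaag
hsa-miR-30a-3p, chr6:71403554-71403575: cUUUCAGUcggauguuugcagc

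Of the 54 genes on the hypoxia and glycolysis lists that were tested, 32 passed the test in this comparison, and the promoter table held 27 of those. The 4 with the smallest adjusted p are shown as the 250 bases before an annotated start (RefSeq, GRCh38.p14), with the HIF core letters ACGTG on either strand (CACGT on the other) in capitals. For each gene the window with the most matches among its listed starts is printed.
LDHA, chr11:18394313-18394562, plus strand: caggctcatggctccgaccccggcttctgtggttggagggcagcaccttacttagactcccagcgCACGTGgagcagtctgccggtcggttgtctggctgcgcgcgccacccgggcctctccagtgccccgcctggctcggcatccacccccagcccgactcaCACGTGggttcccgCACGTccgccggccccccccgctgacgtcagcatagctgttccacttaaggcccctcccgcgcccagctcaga
PDK1, chr2:172555840-172556089, plus strand: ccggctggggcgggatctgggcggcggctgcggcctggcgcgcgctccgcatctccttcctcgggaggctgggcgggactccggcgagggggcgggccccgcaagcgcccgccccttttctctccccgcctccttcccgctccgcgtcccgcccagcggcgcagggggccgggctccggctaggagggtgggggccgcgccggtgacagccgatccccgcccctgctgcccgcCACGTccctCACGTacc
SLC16A3, chr17:82228792-82229041, plus strand: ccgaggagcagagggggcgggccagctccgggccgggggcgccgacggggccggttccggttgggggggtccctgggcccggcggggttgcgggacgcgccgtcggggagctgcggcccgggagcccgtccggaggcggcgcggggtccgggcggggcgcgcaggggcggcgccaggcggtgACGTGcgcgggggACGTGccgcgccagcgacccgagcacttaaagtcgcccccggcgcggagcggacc
CA12, chr15:63381847-63382096, minus strand: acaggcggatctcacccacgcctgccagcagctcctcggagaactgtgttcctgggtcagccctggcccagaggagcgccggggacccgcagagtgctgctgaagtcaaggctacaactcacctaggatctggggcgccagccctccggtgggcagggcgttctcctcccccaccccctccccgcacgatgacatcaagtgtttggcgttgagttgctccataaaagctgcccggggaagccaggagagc

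The LDHA window held 3 separate stretches with the letters, PDK1 and SLC16A3 held 2 each, and CA12 held none in its only listed window. For LDHA 1 of 2 listed starts had a match, for PDK1 1 of 2 and for SLC16A3 1 of 5. Across all 35116 windows of this length in the table, 18.5% held the letters at least once. Counted by gene over all its listed starts, 29.4% of the 9254 tested genes in the table had a match, as did 32.2% of the genes lower with shHIF1A than with KC7F2 and 26.8% of those higher. On the hypoxia and glycolysis lists the letters were present for 13 of 18 genes lower with shHIF1A and 3 of 9 genes higher with it. A match describes the letters only.

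The transcript aimed at by the shRNA came first. HIF1A (chr14:61695513-61748259, hg38, matched by symbol to GENCODE 29) stood at 3.06, 4.28 and 3.33 RPKM in the shHIF1A libraries, 15.1, 23.2 and 13.5 RPKM with KC7F2 and 14, 27.3 and 28 RPKM in the control libraries. All 3 shHIF1A values lay below all KC7F2 and control values, while the KC7F2 and control values overlapped. The shHIF1A group was lower, with a difference from the KC7F2 group (shHIF1A minus KC7F2, as everywhere below) of -2.11 ± 0.23 (SE) on the log2(RPKM + 0.5) scale, adjusted p = 2.73e-06 by limma with Benjamini-Hochberg adjustment over all 12900 genes, the test used throughout. KC7F2 against control differed by -0.38 ± 0.23 (adjusted p = 0.559). FOXA1, the forkhead factor that opens chromatin for nuclear receptors, was at 119.9 ± 3.06 RPKM (SD, n = 3) with shHIF1A and 103 ± 20.01 RPKM with KC7F2, and did not pass the test (adjusted p = 0.249).

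The largest difference of all belonged to MIR30A. It stood at 39.8, 18.5 and 25.3 RPKM with shHIF1A, against 5928, 5593 and 5428 RPKM with KC7F2 and 7463, 6602 and 5859 RPKM in the control libraries, a difference of -7.71 ± 0.22 (SE) from KC7F2 (adjusted p = 1.49e-12). In the cells with both shRNAs it was again high, at 5300.5, 4051 and 4836 RPKM. Of the 6 miR-30 family genes only 1 other, MIR30E, was tested, and it was listed at 0 in all 6 libraries compared. As background, pGIPZ carries its hairpins inside a miR-30 scaffold, and pGIPZ was named in the labels for the control vector alone. The origin of these reads was not tested, and the vector and the loss of HIF1A cannot be told apart in the shHIF1A group.

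**Figure D1:**
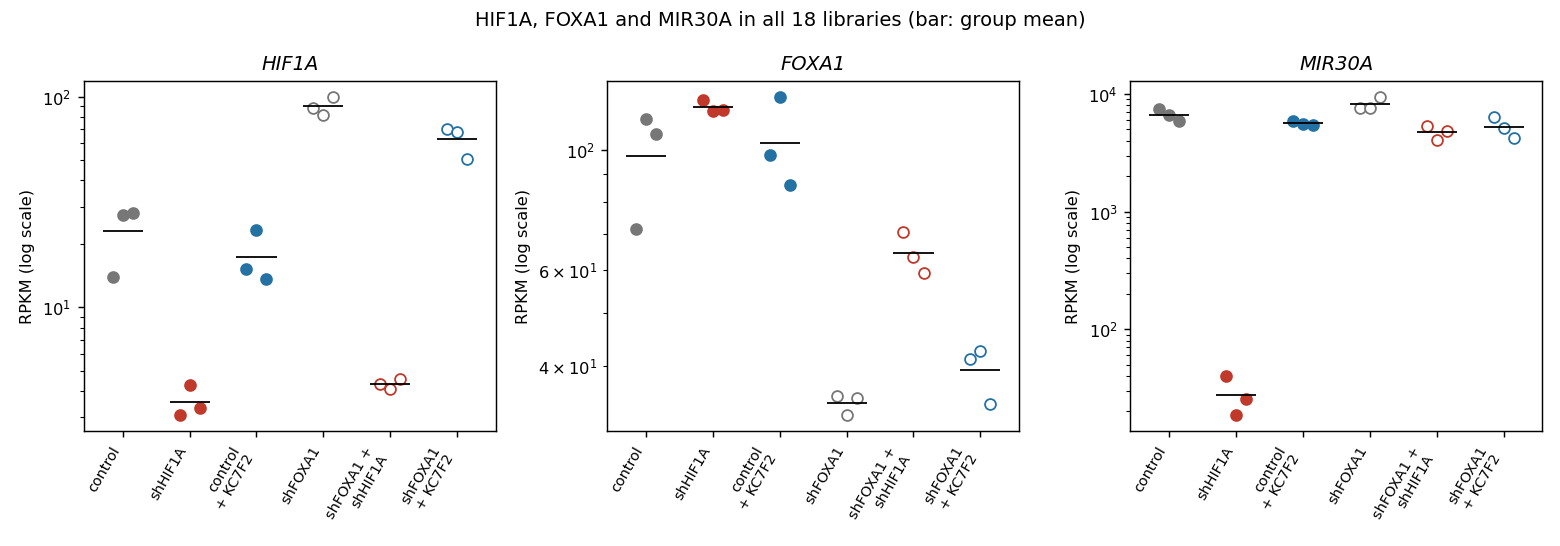
RPKM on a log axis for HIF1A, FOXA1 and MIR30A in each of the 18 libraries, 3 points a group with a bar at the mean; filled points are cells with FOXA1 intact. HIF1A lies near 3 to 4 RPKM in both groups with its shRNA, and MIR30A is low in the shHIF1A group but not in the cells with both shRNAs.

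Across the transcriptome the groups were far apart. Of 12900 genes, 5501 (42.6%) passed the test at an adjusted p below 0.05, 2972 (23.0%) higher with shHIF1A and 2529 (19.6%) lower. A difference of at least 2-fold was reached by 663 genes (5.14%) upward and 553 (4.29%) downward. Without any adjustment 6442 genes had p below 0.05. The 3 shHIF1A libraries all lay above the 3 KC7F2 libraries for 3636 genes (28.2%) and all below for 3248 (25.2%). With the 3 libraries of more short-gene signal left out, 3102 genes passed, 2944 of them genes called in the full fit with the same direction.

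Each group was also set beside the control vector, in 2 comparisons that share the control libraries. Against control, 5422 genes (42.0%) differed with shHIF1A, 25.9% higher and 16.1% lower, and 263 (2.04%) with KC7F2, where 1537 had an unadjusted p below 0.05. The second count was 21 when only the groups compared entered the fit, 67 without the 3 libraries of more short-gene signal and 497 without control replicate 1. It fell to 173 and 172 without control replicates 2 and 3 and to 150 and 165 without KC7F2 replicates 1 and 3. The median absolute difference over all genes was 0.361 on the log2 scale between shHIF1A and KC7F2, 0.353 between shHIF1A and control and 0.149 between KC7F2 and control. On the first principal component of all 18 libraries, which held 30.9% of the variance, the shHIF1A libraries scored 42.1 to 44.5, the KC7F2 libraries -24.3 to -18.5 and the control libraries -25.6 to -18.9.

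**Figure D2:**
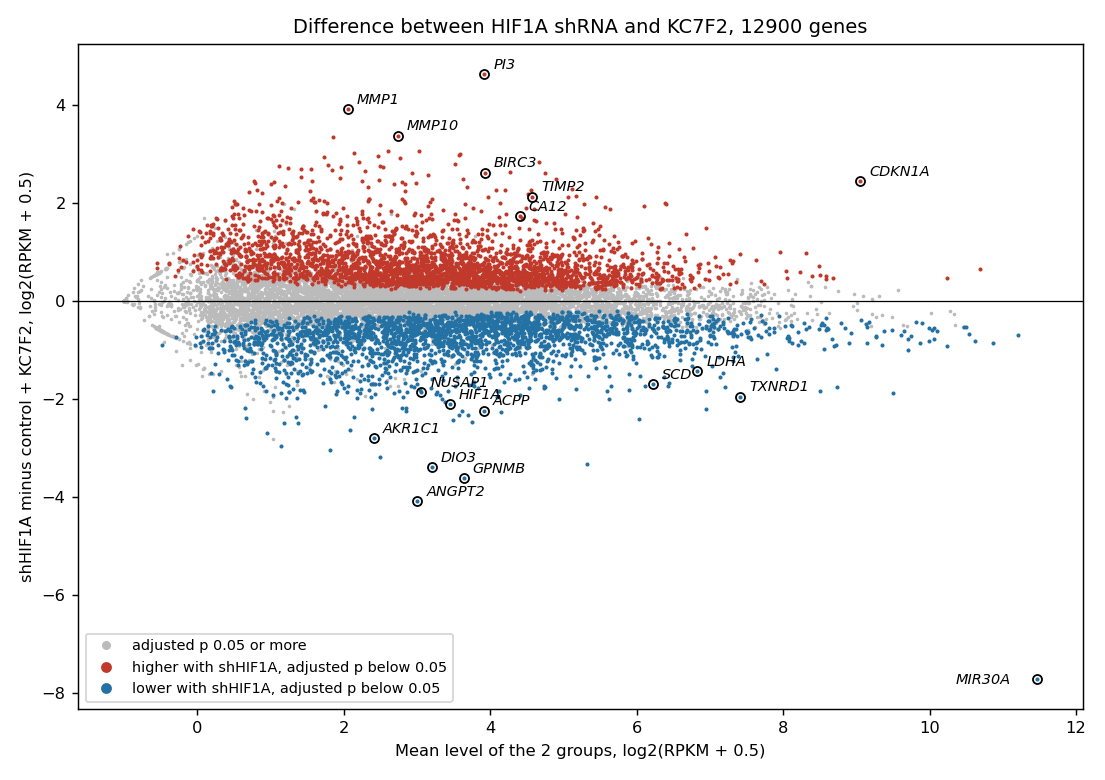
Difference of each of the 12900 genes between shHIF1A and control + KC7F2 on the log2(RPKM + 0.5) scale, against its mean level in the 2 groups; red and blue points have an adjusted p below 0.05. MIR30A stands alone at the bottom right, PI3 and MMP1 lead the genes higher with shHIF1A, and ANGPT2 and GPNMB lead the other genes lower with it.

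Of 16 regulators of the HIF pathway tested on the list of 20, 5 were higher with shHIF1A and 2 lower, counts near the 23.0% and 19.6% of all genes, with a median difference of 0.12 beside 0.0 over all genes. CITED2, which competes with HIF1A for the coactivators CREBBP and EP300, stood at 72.5, 59.6 and 62.6 RPKM with shHIF1A and 23.6, 24.1 and 21.3 RPKM with KC7F2. The 2 sets did not overlap, and the difference was 1.47 ± 0.10 (SE; adjusted p = 1.56e-08). HIF1AN, the asparaginyl hydroxylase that blocks coactivator binding, was at 9.8 ± 0.444 against 4.74 ± 0.581 RPKM (adjusted p = 7.57e-07), and EGLN3, an oxygen-sensing prolyl hydroxylase, at 20.5 ± 1.85 against 9.89 ± 1.03 RPKM (adjusted p = 2.15e-05). EPAS1, which encodes the sister subunit HIF2A, was higher by 1.11 ± 0.19 (SE) at a low level of 2.12 ± 0.214 RPKM. HIF1A itself and BHLHE40, a repressor that HIF1A induces, were the 2 lower members, BHLHE40 with a difference of -1.47 ± 0.21 (SE). The shared partner ARNT did not pass the test, at 10.4 ± 0.976 and 10.1 ± 1.63 RPKM.

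Hypoxia target genes did not differ between the inhibitions as a block. Of 32 tested on the list of 40, 8 were higher with shHIF1A and 10 lower, beside 23.0% and 19.6% of all genes, and the median was -0.16. Without the 3 libraries of more short-gene signal 5 and 5 remained past the test. Against control 15 of the 32 were lower and 5 higher with shHIF1A, beside 16.1% and 25.9% of all genes. For KC7F2 the counts were 4 lower and 2 higher, beside 0.992% and 1.05%. The member with the largest difference between the inhibitions was ANGPT2, a ligand of the endothelial receptor TEK that loosens vessel walls. It reached 1 RPKM in no library with the HIF1A shRNA and passed the filter through the others, so its fall is no support for the list. Such genes numbered 3 of the 32 members and 320 of all 12900. ANGPT2 stood at 0.347, 0.382 and 0.448 RPKM with shHIF1A, 14.8, 15.5 and 13.7 RPKM with KC7F2 and 5.03, 6.52 and 6.48 RPKM in control. The 3 groups did not overlap, with KC7F2 above control and shHIF1A below it. The difference between the inhibitions was -4.09 ± 0.12 (SE; adjusted p = 1.49e-12), made of -2.86 for shHIF1A and 1.23 for KC7F2 against control (adjusted p = 1.28e-10 and 2.48e-05).

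PDK1, the kinase that shuts pyruvate out of mitochondria, was at 4.08, 3.95 and 4.0 RPKM with shHIF1A, 8.59, 8.11 and 8.93 RPKM with KC7F2 and 11.3, 12.1 and 11.8 RPKM in control. The 3 groups were in separate ranges, and both inhibitions were below control, with differences of -1.44 and -0.44 (adjusted p = 1.34e-08 and 0.0207). ZNF395, a hypoxia-induced zinc finger gene, was at 3.87 ± 0.36 against 7.97 ± 0.348 RPKM (adjusted p = 1.00e-06). The mitophagy receptor BNIP3 was at 59.96 ± 3.95 against 104 ± 14.2 RPKM and the oxidase of protein folding ERO1A at 5.43 ± 0.581 against 9.14 ± 1.23 RPKM (adjusted p = 4.23e-04 and 6.89e-05). In the other direction, CA12, a membrane carbonic anhydrase that acidifies the surroundings of the cell, stood at 31.5, 35.6 and 28.7 RPKM with shHIF1A and 9.4, 11.1 and 7.62 RPKM with KC7F2. Its KC7F2 and control values overlapped, and only shHIF1A was apart, by 1.73 ± 0.13 (SE; adjusted p = 3.27e-08). The collagen hydroxylase P4HA2 and the EGFR ligand TGFA were also higher with shHIF1A, by 1.04 ± 0.13 and 1.18 ± 0.12 (SE).

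Several textbook targets did not pass the test between the inhibitions. VEGFA was at 26.1 ± 4.57 and 23 ± 1.86 RPKM and 27.5 ± 3.27 RPKM in control, and the glucose transporter SLC2A1 at 18 ± 1.73, 19.6 ± 2.13 and 20.3 ± 2.85 RPKM (adjusted p = 0.354 and 0.449 between the inhibitions). CA9 was under the filter in these cells, at 0.0188 ± 0.0325, 0.123 ± 0.0732 and 0.139 ± 0.0994 RPKM. NDRG1, a stress and androgen response gene, was below control in both groups, at 87.4 ± 8.35 and 67.2 ± 3.87 against 137 ± 9.98 RPKM, and lower with KC7F2 than with shHIF1A (adjusted p = 0.00474).

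Glycolysis genes were mostly lower with the shRNA. Of 24 tested on the list of 25, 13 were lower with shHIF1A than with KC7F2 and 2 higher, beside 19.6% and 23.0% of all genes, with a median of -0.32. Against control the counts were 13 lower and 4 higher for shHIF1A, beside 16.1% and 25.9% of all genes. For KC7F2 they were 2 lower and 0 higher, beside 0.992% and 1.05%. LDHA, which turns pyruvate into lactate, stood at 63.7, 66.4 and 53.1 RPKM with shHIF1A, 167, 157 and 172 RPKM with KC7F2 and 213, 193 and 178 RPKM in control. The 3 groups did not overlap, with shHIF1A lowest, and the difference from KC7F2 was -1.43 ± 0.11 (SE; adjusted p = 4.54e-08).

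PGM1, which links glycogen to glycolysis, was at 3.19, 3.26 and 2.41 RPKM with shHIF1A and 7.38, 8.42 and 7.38 RPKM with KC7F2 (adjusted p = 2.57e-06). The core enzymes were lower to different degrees: GPI by -0.81, ALDOA by -0.92, TPI1 by -0.74, ENO1 by -0.78, PKM by -0.45 and GAPDH, which has many processed copies, by -1.002. PGK1 stood against them, at 421 ± 78.1 RPKM with shHIF1A and 212 ± 14.2 RPKM with KC7F2, higher by 0.98 ± 0.14 (SE; adjusted p = 2.97e-05). The other exception was SLC16A3, the lactate exporter MCT4, at 6.86, 6.38 and 5.75 RPKM with shHIF1A, 2.0, 1.74 and 2.12 RPKM with KC7F2 and 4.08, 4.24 and 3.52 RPKM in control. Its groups did not overlap, and the 2 inhibitions lay on opposite sides of control, by 0.62 and -0.86 (adjusted p = 0.00242 and 0.00296). The hexokinases HK1 and HK2 did not pass the test (adjusted p = 0.956 and 0.651).

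Of 31 oxidative phosphorylation genes, 9 were lower with shHIF1A and 1 higher, beside 19.6% and 23.0% of all genes, with a median of -0.35. Without the libraries of more short-gene signal 1 was lower and 1 higher and the median was -0.04. UQCRFS1, the Rieske subunit of complex III, was at 35.4 ± 2.23 against 59.3 ± 10.4 RPKM (adjusted p = 0.00485), and ATP5O, NDUFA2 and NDUFA9 lost their calls in that fit (adjusted p = 0.166, 0.202 and 0.0525). The differences of ATP5O and NDUFA2 went from -0.64 and -0.90 to -0.28 and -0.41, while that of NDUFA9 was -0.43 before and -0.42 after.

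**Figure D3:**
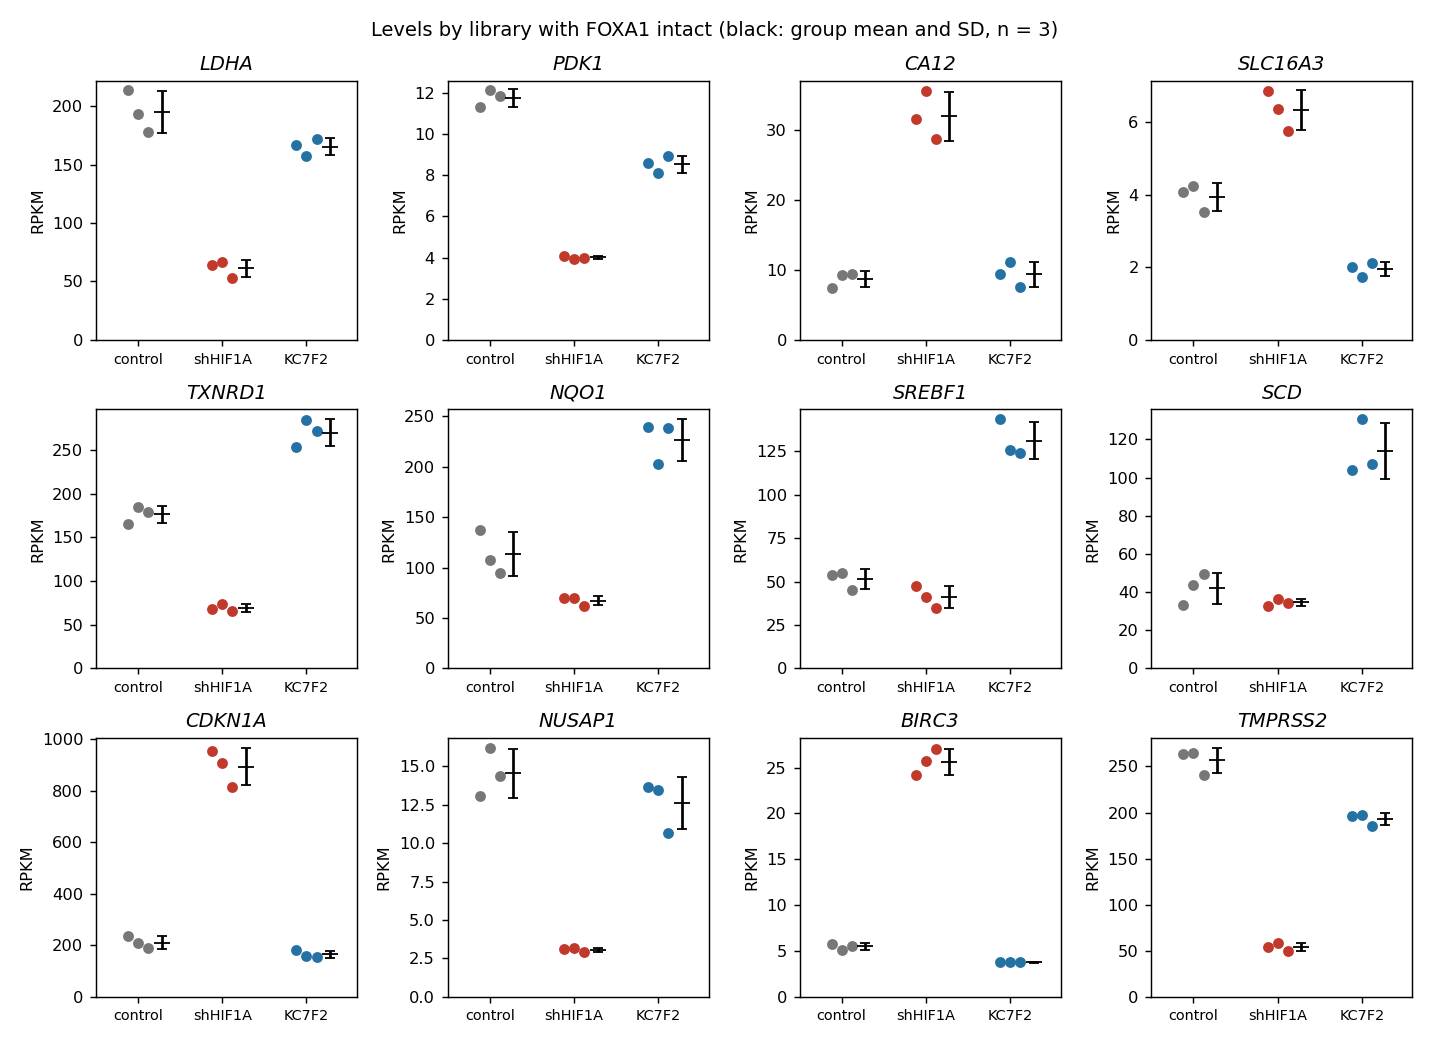
RPKM of 12 genes in the 9 libraries with FOXA1 intact, 1 point a library, with the group mean and SD in black. LDHA and PDK1 are lowest with shHIF1A, CA12 and CDKN1A are high with shHIF1A alone, and TXNRD1, NQO1, SREBF1 and SCD are highest with KC7F2.

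Genes of the antioxidant factor NRF2 were set apart in both directions from control. Of 26 tested among 27, 23 were lower with shHIF1A than with KC7F2 and 1 higher, beside 19.6% and 23.0% of all genes. The median was -0.84, and -0.71 without the libraries of more short-gene signal. Against control, 15 were higher and 0 lower with KC7F2, beside 1.05% and 0.992% of all genes. With shHIF1A 10 were lower and 1 higher, beside 16.1% and 25.9%. With only the groups compared in the fit, 9 genes in all were higher than control with KC7F2, so not all 15 could pass there. TXNRD1, the reductase that keeps thioredoxin active, stood at 67.6, 74.2 and 65.7 RPKM with shHIF1A, 254, 284 and 272 RPKM with KC7F2 and 165, 185 and 178 RPKM in control. The 3 groups lay in separate ranges, at -1.34 and 0.61 from control for shHIF1A and KC7F2 (adjusted p = 1.10e-08 and 6.18e-04).

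NQO1, a quinone reductase, showed the same order, at 69.5, 69.5 and 62.1 RPKM with shHIF1A, 239, 203 and 238 RPKM with KC7F2 and 137, 108 and 94.8 RPKM in control. The difference between the inhibitions was -1.75 ± 0.12 (SE; adjusted p = 1.47e-08). SQSTM1, the autophagy receptor that frees NRF2 from its inhibitor, was at 132 ± 10.7, 344 ± 16.9 and 195 ± 30.5 RPKM. The aldo-keto reductases AKR1C1 and AKR1C2, close copies between which reads can be split, were lower, differing by -2.81 ± 0.27 and -1.98 ± 0.15 (SE). FTH1, the ferritin heavy chain with many processed copies, was at 312 ± 56.6 against 1136 ± 126 RPKM (adjusted p = 3.14e-07). AKR1B10 was the exception, higher with shHIF1A at 3.55 ± 0.585 against 1.42 ± 0.218 RPKM.

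Lipid synthesis genes were set apart mainly by the KC7F2 libraries. Of 28 tested on the list of 29, 13 were lower with shHIF1A than with KC7F2 and 2 higher (median -0.26), and 11 and 1 without the libraries of more short-gene signal. Over all genes 19.6% were lower with shHIF1A than with KC7F2 and 23.0% higher. Against control 10 members were higher and 0 lower with KC7F2, beside 1.05% and 0.992% of all genes. With shHIF1A 6 were higher and 4 lower, shares near the 25.9% and 16.1% of all genes. The fit of only the groups compared had 9 genes in all higher than control with KC7F2, so not all 10 could pass there. SREBF1, the master factor of fatty acid synthesis, stood at 47.5, 41.1 and 35 RPKM with shHIF1A, 144, 126 and 124 RPKM with KC7F2 and 54.1, 55.2 and 44.9 RPKM in control. KC7F2 lay far above both other groups, 1.35 from control (adjusted p = 1.28e-05), and the difference between the inhibitions was -1.67 ± 0.12 (SE; adjusted p = 2.64e-08).

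SCD, the desaturase that makes oleate, was at 32.9, 36.3 and 34.5 RPKM with shHIF1A, 104, 131 and 107 RPKM with KC7F2 and 33.3, 43.6 and 49.3 RPKM in control. Its shHIF1A and control values overlapped, with adjusted p = 0.124 between them. INSIG1, which holds the sterol sensor in the endoplasmic reticulum, was lower with shHIF1A than with KC7F2, differing by -1.60 ± 0.12 (SE; adjusted p = 4.11e-08). HMGCS1, an early enzyme of sterol synthesis, went the other way, at 30.8 ± 2.2 RPKM with shHIF1A and 15.9 ± 0.756 RPKM with KC7F2 (adjusted p = 8.40e-07).

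Amino acid supply genes under ATF4, the factor of the integrated stress response, were also lower with the shRNA: 19 of 29 tested lower and 3 higher, with a median of -0.54 (13 and 1 without the libraries of more short-gene signal). The shares over all genes were 19.6% lower and 23.0% higher. SLC3A2, the heavy chain of amino acid exchangers, stood at 84.6, 74.7 and 68.9 RPKM with shHIF1A, 229, 189 and 221 RPKM with KC7F2 and 131, 113 and 93.3 RPKM in control. It was above control with KC7F2 and below it with shHIF1A (adjusted p = 4.21e-04 and 0.00189). ASNS, which makes asparagine, was at 19.7 ± 0.558 against 40.3 ± 1.71 RPKM and the glycyl-tRNA synthetase GARS at 45.4 ± 4.45 against 78.8 ± 2.32 RPKM (adjusted p = 9.68e-07 and 3.63e-06). VLDLR, a lipoprotein receptor, was higher with shHIF1A by 1.05 ± 0.09 (SE).

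Folding and translation control lists held calls in both directions, beside 23.0% higher and 19.6% lower over all genes. Of 22 endoplasmic reticulum folding genes 3 were higher and 6 lower with shHIF1A, with XBP1, the factor of the unfolded protein response, at 59.3 ± 1.0 against 113 ± 9.72 RPKM (adjusted p = 3.55e-06). The counts were 2 and 3 without KC7F2 replicate 3, 1 and 4 without KC7F2 replicate 1, 1 and 6 without shHIF1A replicate 2 or with only the groups compared, and 6 and 6 after quantile normalisation. Of 21 heat shock genes 5 were higher and 4 lower, shares near those of all genes, and the small chaperone HSPB8 was at 12.7, 14 and 13.8 RPKM with shHIF1A and 2.52, 3.73 and 3.4 RPKM with KC7F2 (adjusted p = 7.59e-08). Without shHIF1A replicate 1 the higher count was 3. Of 23 mTOR and cap-dependent translation genes 6 were higher and 9 lower (5 and 5 without the libraries of more short-gene signal). Among them SESN1, a stress-induced brake on mTOR, was higher by 0.91 ± 0.12 (SE), and the translation repressors EIF4EBP1 and EIF4EBP2 were lower, differing by -0.87 ± 0.16 and -0.96 ± 0.13 (SE).

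Of 7 metallothionein and zinc response genes tested among 14, 6 were lower with shHIF1A and 1 higher, and 3 and 1 without the libraries of more short-gene signal, in which MT1X lost its call (adjusted p = 0.0711) at a difference of -0.83, against -1.07 with all libraries. For comparison, 19.6% of all genes were lower and 23.0% higher. Metallothioneins bind zinc and other metals and resemble each other closely, so reads can be split between them. MT1G was at 3.69, 4.32 and 2.78 RPKM with shHIF1A and 24.7, 16.7 and 25.7 RPKM with KC7F2 (adjusted p = 1.11e-06), and MT2A at 41.9 ± 12.8 against 122 ± 27 RPKM (adjusted p = 2.36e-04). The higher member was the zinc importer SLC39A10, by 0.93 ± 0.17 (SE). Of 26 lysosome and autophagy genes 8 were higher and 7 lower, near the 23.0% and 19.6% of all genes (5 and 4 in that same fit). GPNMB, a lysosomal membrane glycoprotein, stood at 1.11, 1.49 and 1.54 RPKM with shHIF1A, 22, 22.6 and 23 RPKM with KC7F2 and 7.19, 5.65 and 6.31 RPKM in control. It was above control with KC7F2 and below it with shHIF1A (adjusted p = 1.53e-07 and 4.85e-09), which made a difference of -3.62 ± 0.11 (SE). WIPI1, an early autophagosome protein, was higher with shHIF1A by 1.90 ± 0.15 (SE), and ATP6V1A, a subunit of the proton pump, lower, differing by -1.14 ± 0.08 (SE).

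Proliferation genes were lower with the shRNA almost throughout. Of 36 tested, 35 were lower with shHIF1A than with KC7F2 and 0 higher, beside 19.6% and 23.0% of all genes. The median was -1.29. Against control 35 were lower and 0 higher with shHIF1A, beside 16.1% and 25.9% of all genes. With KC7F2 0 were lower and 0 higher by limma, beside 0.992% and 1.05%. NUSAP1, which bundles spindle microtubules, stood at 3.11, 3.17 and 2.93 RPKM with shHIF1A, 13.7, 13.5 and 10.7 RPKM with KC7F2 and 13.1, 16.2 and 14.4 RPKM in control. The shHIF1A libraries were far below, and the other groups overlapped, with a difference of -1.87 ± 0.13 (SE; adjusted p = 1.35e-08) between the inhibitions. RRM2, which makes deoxynucleotides, was lower, differing by -1.92 ± 0.16 (SE), and the replication helicase subunits MCM4 and MCM6 by -1.02 ± 0.09 and -1.08 ± 0.09 (SE).

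Targets of p53 lay on the other side. Of 25 tested, 19 were higher with shHIF1A than with KC7F2 and 2 lower, beside 23.0% and 19.6% of all genes. The median was 0.73. Against control the counts were 18 and 2 for shHIF1A, beside 25.9% and 16.1% of all genes. For KC7F2 they were 0 and 2, beside 1.05% and 0.992%. CDKN1A, the cell cycle inhibitor p21, stood at 957, 908 and 817 RPKM with shHIF1A, 180.2, 160.4 and 153 RPKM with KC7F2 and 236, 208 and 188 RPKM in control. The shHIF1A values were higher than every other value, by 2.44 ± 0.11 (SE) over KC7F2 (adjusted p = 2.29e-10). The polo-like kinase PLK2 was at 36.4 ± 0.837 against 11.2 ± 0.474 RPKM and the antiproliferative BTG2 at 63.4 ± 1.05 against 20.6 ± 0.564 RPKM. Both were also below control with KC7F2 (adjusted p = 0.0061 and 0.047). RRM2B, the p53-induced form of the ribonucleotide reductase subunit, was higher by 1.42 ± 0.10 (SE), opposite to RRM2. The lower members were CCNG1 and TP53INP1, by -0.97 ± 0.15 and -0.66 ± 0.10 (SE).

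Ribosomal protein genes were lower with shHIF1A for 28 of 33 and higher for 0, with a median of -0.60, but this count was 16 (median -0.25) after quantile normalisation and 5 (median -0.39) without the libraries of more short-gene signal. Over all genes 19.6% were lower and 23.0% higher. Many ribosomal protein genes have processed copies. RPS2 was at 298, 234 and 227 RPKM with shHIF1A and 559, 426 and 516 RPKM with KC7F2 (adjusted p = 3.60e-04). Of 23 MYC and ribosome biogenesis genes, 17 were lower and 0 higher, beside the same shares of all genes (median -0.44). The count was 9 without those 3 libraries, 9 without shHIF1A replicate 3 and 10 without KC7F2 replicate 1. NOLC1 and NOP56, which assemble small nucleolar particles, were at 28.8 ± 0.953 and 37 ± 1.55 RPKM with shHIF1A against 57.9 ± 1.93 and 69.2 ± 0.481 RPKM with KC7F2 (adjusted p = 3.88e-07 and 1.22e-05).

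**Figure D4:**
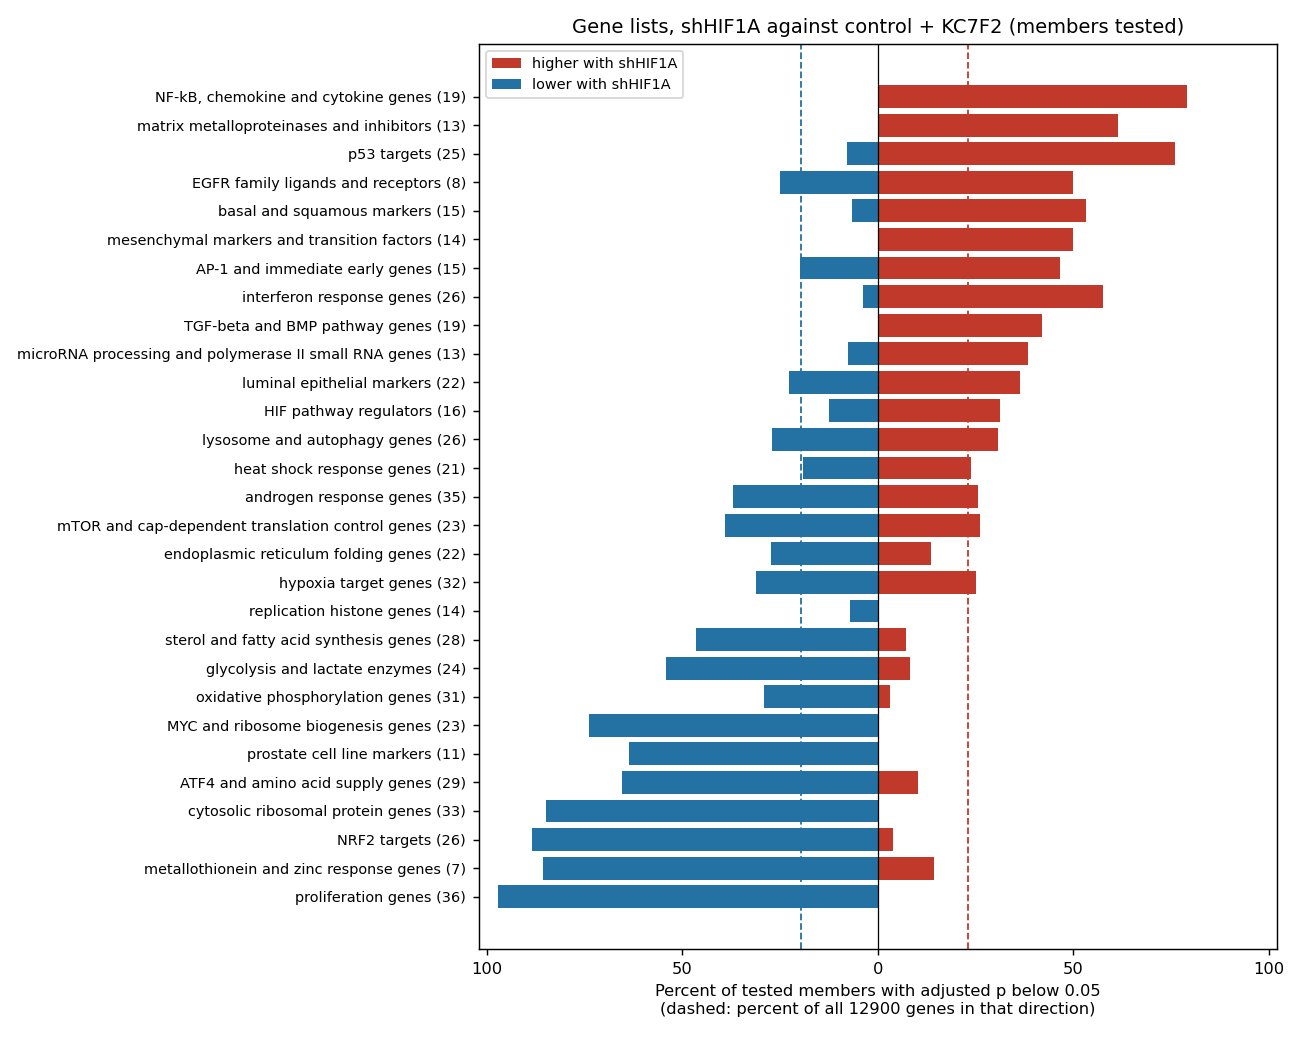
Percent of the tested members of each gene list that were higher (red, right) or lower (blue, left) with shHIF1A than with control + KC7F2, ordered by the median difference; dashed lines mark 23.0% and 19.6%, the shares over all 12900 genes. NF-kB, matrix metalloproteinase and p53 lists lie at the top, and proliferation, metallothionein and NRF2 lists at the bottom.

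Many androgen response genes were lower than control in each group. Of 35 tested among 36, 9 were higher and 13 lower with shHIF1A than with KC7F2, beside 23.0% and 19.6% of all genes. The median was -0.06. Without the libraries of more short-gene signal the counts were 9 and 8. Against control 20 were lower and 4 higher with shHIF1A, where 16.1% and 25.9% of all genes were, and 18 were lower and 2 higher with KC7F2, where 0.992% and 1.05% of all genes were. The 2 comparisons share the control libraries. With only the groups compared in the fit, 12 genes in all were lower than control with KC7F2, so not all 18 could pass there. FKBP5, a chaperone of steroid receptors, was at 10.7 ± 0.704 and 9.06 ± 0.661 RPKM against 24.9 ± 3.72 RPKM in control, and the factor MAF at 2.4 ± 0.175 and 2.49 ± 0.0983 against 9.6 ± 0.772 RPKM. Neither passed the test between the inhibitions (adjusted p = 0.083 and 0.729). KLK3, which encodes prostate-specific antigen, was at 375 ± 43.8 and 513 ± 44.1 against 813 ± 129 RPKM, lower with shHIF1A (adjusted p = 0.011).

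Of the 22 members called between the inhibitions, those of smallest adjusted p included ACPP, TMPRSS2, NCAPD3 and SORD. ACPP, prostatic acid phosphatase, stood at 4.7, 4.42 and 5.18 RPKM with shHIF1A, 24, 25.5 and 23.5 RPKM with KC7F2 and 29, 27.8 and 29.3 RPKM in control. The shHIF1A values were far below the rest, by -2.24 ± 0.10 (SE) from KC7F2 (adjusted p = 2.29e-10). TMPRSS2, a membrane serine protease, was at 53.9, 58.1 and 50.1 RPKM with shHIF1A, 197, 197 and 185 RPKM with KC7F2 and 264, 265 and 241 RPKM in control. The 3 groups did not overlap (adjusted p = 3.57e-10 between the inhibitions). NCAPD3, a condensin subunit, went the other way, at 35.7 ± 3.36 against 13.5 ± 2.11 RPKM (adjusted p = 1.52e-07). SORD, which makes fructose from sorbitol, differed by -1.02 ± 0.08 (SE; adjusted p = 9.60e-08).

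Of the 11 prostate cell line markers 7 were lower with shHIF1A and 0 higher (6 and 1 without the libraries of more short-gene signal). For comparison, 19.6% of all genes were lower and 23.0% higher. FOLH1, prostate-specific membrane antigen, was at 66.8, 72.7 and 73.6 RPKM with shHIF1A, 211, 201 and 217 RPKM with KC7F2 and 154, 151 and 138 RPKM in control. It was above control with KC7F2 and below it with shHIF1A (adjusted p = 0.00505 and 2.06e-07). Of 22 luminal epithelial markers 8 were higher and 5 lower with shHIF1A (5 and 6 without KC7F2 replicate 3), beside 23.0% and 19.6% of all genes. KLF5 and ELF3, epithelial transcription factors, were higher by 1.23 ± 0.13 and 0.92 ± 0.11 (SE). The splicing regulator ESRP1 was lower, differing by -0.74 ± 0.10 (SE). The neuroendocrine-linked genes SYT4, a vesicle protein, and DDC, which makes monoamines, were lower with shHIF1A, at 158 ± 13.3 against 565 ± 40.8 and 24 ± 1.2 against 46.8 ± 2.74 RPKM (adjusted p = 1.42e-09 and 4.04e-04).

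Basal and squamous markers were higher with the shRNA for 8 of 15 tested among 22, and lower for 1, a call lost without shHIF1A replicate 1 or KC7F2 replicate 2. Over all genes 23.0% were higher and 19.6% lower. PI3, the protease inhibitor elafin of stratified epithelia, had the largest rise of the comparison. It stood at 28.9, 25.8 and 30.9 RPKM with shHIF1A, 1.34, 0.325 and 0.559 RPKM with KC7F2 and 2.86, 2.34 and 2.45 RPKM in control. KC7F2 lay below control and shHIF1A above it, so that the inhibitions differed by 4.63 ± 0.21 (SE; adjusted p = 2.29e-10). The hemidesmosome genes ITGB4 and LAMB3 were at 4.35 ± 0.406 and 5.8 ± 1.06 RPKM with shHIF1A against 0.697 ± 0.16 and 1.17 ± 0.0698 RPKM with KC7F2 (adjusted p = 1.71e-07 and 1.16e-08). IVL, a protein of the cornified envelope, was at 1.65 ± 0.576 against 0.135 ± 0.117 RPKM (adjusted p = 3.65e-06). KRT80 and TRIM29, both epithelial genes outside the list, were higher by 3.05 ± 0.20 and 2.93 ± 0.17 (SE).

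Secreted proteases were among the largest differences. Of 13 metalloproteinase and inhibitor genes tested among 23, 8 were higher with shHIF1A and 0 lower, beside 23.0% and 19.6% of all genes. The median was 0.76. MMP13 reached 1 RPKM only in libraries with the HIF1A shRNA and passed the filter through them. MMP1 and MMP10 reached it in only 1 other library each, with FOXA1 knockdown, at 1.04 and 1.03 RPKM. They too passed the filter only because of libraries with the HIF1A shRNA. The rises of MMP13, MMP1 and MMP10 are therefore no support for the list. MMP1, interstitial collagenase, stood at 8.0, 6.56 and 7.33 RPKM with shHIF1A, was listed at 0 in 2 KC7F2 libraries and all control libraries, and was at 0.0502 RPKM in the third KC7F2 library. Its difference was 3.91 ± 0.27 (SE) on the log2(RPKM + 0.5) scale (adjusted p = 1.56e-08). MMP10, a stromelysin, was at 11.9, 11.9 and 11.3 RPKM with shHIF1A and 0.659, 0.562 and 0.821 RPKM with KC7F2. TIMP2, an inhibitor of these proteases, was higher as well, at 38.3, 40.4 and 36.3 RPKM with shHIF1A and 8.13, 8.96 and 8.1 RPKM with KC7F2. Neither gene overlapped between groups, and the KC7F2 and control values of both did (adjusted p = 1.39e-08 and 6.96e-10 between the inhibitions).

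Mesenchymal and growth factor genes gave smaller sets, whose counts stand beside 23.0% higher and 19.6% lower over all genes. Of 14 mesenchymal genes tested among 22, 7 were higher with shHIF1A and 0 lower, 2 of the 14, CTGF and TGFBI, having passed the filter only through libraries with the HIF1A shRNA. CYR61, a matricellular target of YAP, was at 16.9, 16.6 and 16.7 RPKM with shHIF1A and 5.52, 4.75 and 4.63 RPKM with KC7F2 (adjusted p = 2.31e-08). COL6A1 was higher by 1.10 ± 0.11 and COL1A1 by 1.27 ± 0.16 (SE). The summed level of the fibroblast markers, to which COL1A1 belongs, was 7.98 to 9.33 RPKM with shHIF1A and 3.46 to 4.15 RPKM with KC7F2, with DCN at 0.0266 ± 0.0235 RPKM and at 0 in the KC7F2 libraries. Of 19 TGF-beta and BMP pathway genes 8 were higher and 0 lower, and 3 without the libraries of more short-gene signal, where SMAD7 and SMAD6 lost their calls (adjusted p = 0.0667 and 0.0831) at differences of 0.60 and 0.71, against 0.79 and 0.73 with all libraries. INHBB, an activin subunit, was at 7.19 ± 1.44 against 1.88 ± 0.464 RPKM (adjusted p = 2.23e-05). Of 8 EGFR family genes 4 were higher and 2 lower, with the receptor ERBB3 higher by 0.92 ± 0.09 and LRIG1, which dampens the receptors, lower, differing by -1.22 ± 0.12 (SE). Of 15 AP-1 and immediate early genes 7 were higher and 3 lower (7 and 0 without the libraries of more short-gene signal), with KLF4 at 13.6 ± 1.54 against 3.61 ± 0.166 RPKM and FOSL2 at 36.9 ± 1.71 against 11.6 ± 1.41 RPKM.

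Most inflammatory genes tested were higher with the shRNA. Of 19 NF-kB, chemokine and cytokine genes tested among 28, 15 were higher with shHIF1A and 0 lower, beside 23.0% and 19.6% of all genes. The median was 0.89, and CCL5 passed the filter only through libraries with the HIF1A shRNA. Against control 12 were higher and 0 lower with shHIF1A, beside 25.9% and 16.1% of all genes. With KC7F2 0 were higher and 2 lower, beside 1.05% and 0.992%. BIRC3, an inhibitor of apoptosis that NF-kB induces, stood at 24.2, 25.7 and 27 RPKM with shHIF1A, 3.75, 3.75 and 3.81 RPKM with KC7F2 and 5.79, 5.12 and 5.57 RPKM in control. The 3 groups did not overlap, and shHIF1A exceeded KC7F2 by 2.61 ± 0.09 (SE; adjusted p = 1.32e-11). CXCL10, a chemokine for T cells, was at 7.72, 6.26 and 8.14 RPKM with shHIF1A and 0.612, 0.592 and 0.255 RPKM with KC7F2 (adjusted p = 6.11e-07). LCN2, an iron-binding acute phase protein, was higher by 2.32 ± 0.19 (SE).

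Of 26 interferon response genes tested among 30, 15 were higher and 1 lower, with a median of 0.34 (11 and 0 without the libraries of more short-gene signal). The shares over all genes were 23.0% higher and 19.6% lower. IFIT2, which binds foreign RNA, stood at 9.19, 11.3 and 10.4 RPKM with shHIF1A, 1.63, 1.31 and 1.71 RPKM with KC7F2 and 1.79, 1.83 and 1.78 RPKM in control. The 3 groups did not overlap, with KC7F2 just below control and shHIF1A far above both (adjusted p = 9.34e-08). IFIT1 passed the filter only through libraries with the HIF1A shRNA, so its difference of 2.44 ± 0.23 (SE) is no support for the list. OASL, a paralog of the OAS enzymes, was higher by 2.95 ± 0.28 and IFI6 by 2.13 ± 0.21 (SE). IFIH1, a sensor of double-stranded RNA, did not pass the test, at 2.28 ± 0.405 against 2.2 ± 0.235 RPKM. The leukocyte markers PTPRC and CD3E were at 0, as given above. MIR30A was low in the same shHIF1A libraries, at 39.8, 18.5 and 25.3 RPKM, and the part of the vector in these differences was not tested.

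Among the other large rises, the receptor TNFRSF19 stood at 18.7, 22.4 and 21.4 RPKM with shHIF1A, 2.34, 2.1 and 2.03 RPKM with KC7F2 and 5.4, 4.85 and 6.11 RPKM in control. KC7F2 lay below control and shHIF1A above (adjusted p = 1.34e-04 and 3.45e-08). The tubulin genes TUBA1A and TUBA3D, which have near-identical copies, were higher by 2.83 ± 0.14 and 2.98 ± 0.21 (SE), and MYL9, a light chain of non-muscle myosin, by 2.79 ± 0.15 (SE). SUSD2 and VSTM2L were higher by 3.06 ± 0.26 and 2.92 ± 0.18 (SE).

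Among the other large falls, DIO3, which inactivates thyroid hormone, stood at 1.38, 1.54 and 0.535 RPKM with shHIF1A, 18.9, 14.7 and 15.1 RPKM with KC7F2 and 7.87, 7.47 and 5.44 RPKM in control. Its 3 groups did not overlap (adjusted p = 8.47e-08 between the inhibitions). LMNB1, a nuclear lamina protein, was at 4.07, 3.63 and 3.54 RPKM with shHIF1A and 18.9, 19.6 and 20.5 RPKM with KC7F2, a difference of -2.25 ± 0.13 (SE). STMN1, which destabilises microtubules, and HMGN2, a nucleosome-binding protein with many processed copies, were lower, differing by -2.43 ± 0.19 and -2.33 ± 0.23 (SE). The mesoderm factor MESP1 was lower, differing by -3.33 ± 0.37, LSM4 of the splicing machinery by -2.40 ± 0.23, the lipid kinase DGKH by -2.36 ± 0.17, DDAH1, which breaks down methylarginines, by -2.33 ± 0.13, the mitotic kinase NEK7 by -2.24 ± 0.11 and HDHD2 by -2.26 ± 0.14 (SE). For DDAH1, NEK7, LMNB1 and STMN1 the KC7F2 and control values overlapped, and the shHIF1A values lay below both.

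Small RNA genes are poorly caught by this kind of library, and 37 of 550 tested passed, 7 higher and 30 lower, beside 42.6% of all genes. After MIR30A the largest differences were MIR197, SNORD87 and SNORD88A. SNORD88A was at 0, 0 and 1.16 RPKM with shHIF1A and 5.97, 4.64 and 6.38 RPKM with KC7F2. MIR197 was at 0 in all KC7F2 libraries and at 1.11, 7.0 and 10.5 RPKM with shHIF1A. SNORD87 was at 1.15 ± 1.99 against 9.17 ± 4.36 RPKM. All 3 calls were lost without the libraries of more short-gene signal, MIR197 also without shHIF1A replicate 2 or 3 (adjusted p = 0.0644 and 0.0815) and SNORD87 without any of 4 single libraries. Without the libraries of more short-gene signal the differences were 3.35 for MIR197, -3.88 for SNORD87 and -2.78 for SNORD88A, against 3.35, -3.19 and -3.04 with all libraries, in a fit with fewer libraries. Of 13 genes of microRNA processing 5 were higher with shHIF1A and 1 lower, beside 23.0% and 19.6% of all genes (4 and 2 without the libraries of more short-gene signal), DICER1 by 1.13 ± 0.17 and TNRC6A by 1.02 ± 0.13 (SE). Of 14 replication histone genes 1, HIST1H2BC, was lower, and its call was lost once the length and GC trend was removed (adjusted p = 0.179).

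The same comparison could be made in 6 libraries not used above, those of cells with FOXA1 knocked down that also carried the HIF1A shRNA or received KC7F2. FOXA1 was not at the same level in them, at 70.7, 63.5 and 59.3 RPKM with both shRNAs and 41.2, 42.6 and 34 RPKM with KC7F2, beside 97.5 ± 22.7 RPKM in control cells. The first group lay above the second by 0.71 ± 0.16 (SE; adjusted p = 0.00221), and the part of this gap in the results below was not tested. There 4720 genes (36.6%) passed the test, 3020 (23.4%) higher with the HIF1A shRNA and 1700 (13.2%) lower, or 2326 and 2297 after median-ratio scaling. Of the 5501 genes called with FOXA1 intact, 3093 were called in the same direction there and 80 in the opposite one. The shared calls were 56.2% of the first list and 65.5% of the second. Of the 1216 genes called at 2-fold or more with FOXA1 intact, 948 were called in the same direction. Across the 12900 genes the 2 sets of differences had a Pearson r of 0.638 and a Spearman rho of 0.632, a description over genes, which are not independent replicates. MIR30A differed by only -0.14 there, with MIR30A high in both groups.

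The lists behaved there as follows, beside 13.2% of all genes lower with the HIF1A shRNA and 23.4% higher. NRF2 targets were lower with the HIF1A shRNA for 21 of 26 and higher for 1, p53 targets higher for 22 of 25 and lower for 1, and proliferation genes lower for 23 of 36 and higher for 2. Glycolysis genes were lower for 17 of 24 and hypoxia targets for 18 of 32, with 2 and 3 higher. Ribosomal protein genes had 0 calls in either direction. CDKN1A differed by 2.22 ± 0.11 (SE) and GPNMB by -3.55 ± 0.11 (SE), beside 2.44 and -3.62 with FOXA1 intact, and neither passed the test of the difference between backgrounds (adjusted p = 0.42 and 0.817). CA12 was again higher with the HIF1A shRNA, by 1.47 ± 0.13 (SE; adjusted p = 2.09e-07).

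Whether the gap between the inhibitions differed between the FOXA1 backgrounds was tested directly as a difference of differences, and 758 genes (5.88%) passed, 343 (2.66%) upward and 415 (3.22%) downward, or 536 and 299 after median-ratio scaling. The count was 271 without the 3 libraries of more short-gene signal and 430 to 1095 with 1 library left out: 483 without shHIF1A replicate 2, 430 and 473 without KC7F2 replicates 1 and 3, and 465 without the FOXA1 knockdown KC7F2 replicate 2. HIF1A itself was among them, at 4.32 ± 0.245 RPKM with both shRNAs and 62.8 ± 10.6 RPKM with KC7F2 after FOXA1 knockdown, a difference of -3.70 there against -2.11 with FOXA1 intact (adjusted p = 0.00841 for the difference). ACPP, lower with shHIF1A where FOXA1 was intact, was at 4.26, 3.44 and 4.38 RPKM with both shRNAs and 3.9, 3.68 and 3.17 RPKM with KC7F2 after FOXA1 knockdown. STEAP4, a metalloreductase, changed direction, from 1.73 to -1.01, and so did the protease CAPN2, from 1.002 to -0.68. S1PR3, a receptor of sphingosine phosphate, was lower in both, with differences of -0.73 and -3.56. PDK1 and SLC16A3 also differed between backgrounds (adjusted p = 0.00158 and 4.67e-04), PDK1 by -1.81 and SLC16A3 by 0.07 after FOXA1 knockdown. By list, the test passed for 11 of 32 hypoxia targets, 10 of them upward, for 20 of 35 androgen response genes, and for 12 of 36 proliferation genes, all downward.

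**Figure D5:**
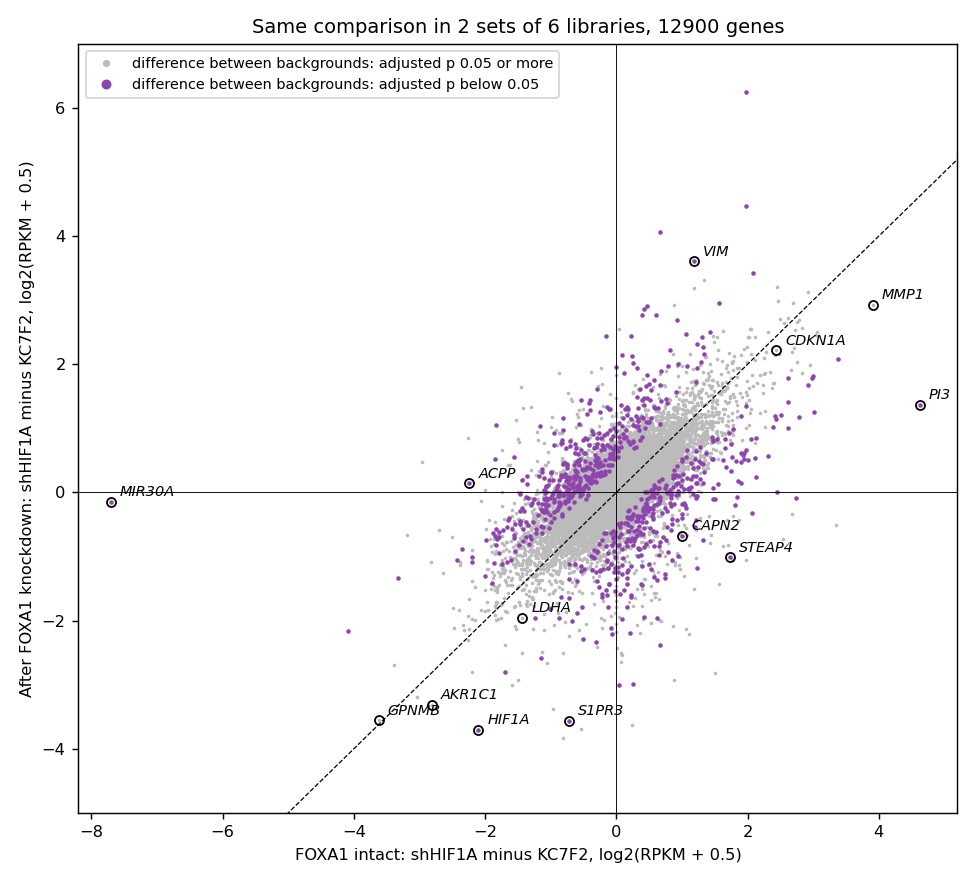
Difference between the HIF1A shRNA and KC7F2 for each of the 12900 genes with FOXA1 intact (horizontal) and after FOXA1 knockdown (vertical), on the log2(RPKM + 0.5) scale, from 2 sets of 6 libraries with none in common; purple points passed the test of the difference between backgrounds, and the dashed line marks equal values. CDKN1A, GPNMB and AKR1C1 lie near the line, MIR30A and ACPP far to the left of it near 0 on the vertical axis, and STEAP4 and CAPN2 in the lower right quadrant.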

How the data were processed

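RNA was sequenced in 18 libraries of LNCaP cells, in 6 groups of 3 by the labels. The submitters' processing notes name STAR and the hg38 build. How reads were counted, over which annotation and with what strand setting was not stated in the sources used. The deposited values were RPKM, made by the authors from those reads, for 26443 genes. Values were taken as log2(RPKM + 0.5), and the 12900 genes reaching 1 RPKM in 3 or more libraries were fitted as 6 group means with limma 3.58.1 (R 4.3.3, empirical Bayes with a trend, 12 residual degrees of freedom). P-values were adjusted by Benjamini-Hochberg over all genes in each of 5 contrasts, and 0.05 was the threshold. Figures and tables used Python 3.11.15. RPKM keeps no read counts, so a count test was not the main test, and log2 differences understate the change of low genes.

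On simulated data for shHIF1A against KC7F2, 35 of 78 genes changed 1.5-fold were called, 53 of 63 changed 2-fold and 57 of 59 changed 4-fold, with 5 false calls among 150, over 12900 genes. The simulation changed far fewer genes than passed in the data and drew noise for each gene independently, so these rates need not carry over. The members and gene lists were chosen with earlier results of these data known. Named genes were HIF1A, FOXA1 and MIR30A, the 14 largest rises and 14 largest falls with no overlap and a mean of at least 2 RPKM in 1 of the groups, 4 small RNAs, the 4 members of a list with the smallest adjusted p, and 6 genes of smallest adjusted p for the difference between FOXA1 backgrounds. Other list members were named after their values were seen, among them BNIP3, VEGFA, SLC2A1, CA9, NDRG1, PGK1, FTH1, KLK3, FKBP5 and IFIH1. The result of 1 of the last 6 genes is not reported here. Alternatives were the pseudocount, the filter, 2 scalings, a robust fit, fewer groups, a replicate block, removal of a length and GC trend, small RNAs or 3 libraries left out, and each library left out in turn.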

Additional observations from a re-analysis of the deposited data

Results flagged for a closer look

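The difference between the HIF1A shRNA and KC7F2 was not the same with FOXA1 intact and after FOXA1 knockdown for 758 genes, by limma's test of the difference of differences with Benjamini-Hochberg adjustment. The count was 271 without control replicate 1 and KC7F2 replicates 1 and 3, and 430 to 1095 with 1 library left out. The FOXA1 level also differed between the knockdown groups, as given above. Genes among the 6 with the smallest adjusted p are given here, as the value with FOXA1 intact minus the value after knockdown on the log2(RPKM + 0.5) scale. MIR30A differed by -7.56 and ACPP by -2.38. Upward differences were found for S1PR3 (2.83), STEAP4 (2.74) and CAPN2 (1.68). For MIR30A the HIF1A shRNA groups differ in vector content as well as in FOXA1, and these cannot be told apart.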

How the results depend on the processing

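The count for shHIF1A against KC7F2 was 5501, and 3102 without control replicate 1 and KC7F2 replicates 1 and 3; leaving out 1 library gave 4461 to 5419. For KC7F2 against control the count of 263 became 21 with only the groups compared, 67 without those 3 libraries and 150 to 497 with 1 library left out. For the difference between FOXA1 backgrounds the count of 758 became 271 without those 3 libraries and 430 to 1095 with 1 library left out (483 without shHIF1A replicate 2, 430 and 473 without KC7F2 replicates 1 and 3, 465 without the FOXA1 knockdown KC7F2 replicate 2). The cause was not tested. After median-ratio scaling the split of higher and lower calls was 2805 and 2576 for shHIF1A against control, 100 and 194 for KC7F2 against control, 2326 and 2297 after FOXA1 knockdown and 536 and 299 for the difference between backgrounds. With the replicate number as a block the counts were 5631, 5561 for shHIF1A against control, 287 for KC7F2 against control, 4869 after FOXA1 knockdown and 984 for the difference between backgrounds; same-numbered shHIF1A and KC7F2 libraries correlated at 0.189, 0.108 and 0.0392, so the numbers were not taken to pair the samples. Gene by gene, the alternatives covered the genes named by rule, for shHIF1A against KC7F2. The difference between backgrounds was covered for the genes named by it. None of these changed direction under any alternative run. Over all pairs of such a gene and an alternative, a call was lost in 19 and gained in 8. Members named after their values were seen, and comparisons with control, were not covered gene by gene.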
